A study of Mus musculus with 24 samples.

Results

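The growth hormone and IGF1 axis was followed in mouse liver through 10 genes out of the 24411 that were counted. The members were taken by symbol, with earlier results of these data known. They are *Ghr* and *Stat5b* (receptor and signal), *Igf1* and *Igfals* (circulating IGF complex), *Igfbp1*, *Igfbp2* and *Igfbp4* (IGF binding proteins) and *Socs2*, *Cish* and *Bcl6* (feedback inhibitors of STAT5 and its antagonist). Pituitary growth hormone reaches the hepatocyte in pulses, binds its receptor GHR and activates the kinase JAK2, which phosphorylates STAT5B. STAT5B then moves to the nucleus and induces *Igf1*, *Igfals*, *Socs2* and *Cish*, and it represses *Bcl6*. Liver is the main source of circulating IGF1, which travels in a complex with an IGF binding protein and the acid-labile subunit encoded by *Igfals*, and fasting is known to blunt the response of liver to growth hormone and to raise *Igfbp1*.

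Polyadenylated RNA from whole liver was sequenced in 24 libraries. In the LKO cohort, Alb-Cre deleted *E2f7* and *E2f8* in liver throughout life (LKO), and control littermates carried the same floxed alleles without Cre. In the HKO cohort, floxed mice were given AAV8-TBG-Cre as adults (HKO) or AAV8-TBG-Null (control), the TBG promoter restricting Cre to hepatocytes. All mice carried floxed *E2f7* and *E2f8* and the R26R mTmG reporter. The authors' methods give a mixed, mainly FVB background for the LKO mice and name none separately for the HKO cohort. All mice were 2.5-month-old males that had been fasted for about 16 h. At 0 h, mice without acetaminophen (APAP) were sequenced singly, with 3 HKO, 3 AAV8-TBG-Null control, 4 LKO and 4 control mice. After 300 mg/kg APAP, livers of the LKO cohort alone were taken at 12, 24, 48, 72 and 96 h. Each of these libraries was a pool of 3 livers, with 1 LKO and 1 control pool per time point. Feeding after APAP and the time of day at harvest were not given in the sources used here, so neither can be told apart from the change after APAP.

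Reads on genes ranged from 12665686 to 19499897 per library, with a median of 16500386, and levels are given in CPM, a gene's count per 1000000 reads after TMM scaling. A count of 3 reads corresponds to 0.154 to 0.237 CPM, a limit that covers counting error only. All 10 members passed the filter on low counts in each comparison, and their lowest count in any library was 20, for *Cish*. The hepatocyte markers *Alb*, *Ttr*, *Apoa1* and 5 others summed to between 60994 and 156558 CPM in the LKO cohort, with none at 0. The Y-linked gene *Eif2s3y* had 463 counts or more in each library, and *Xist* had at most 10. Whole-gene *E2f8* counts do not check the genotype here, because the deletion is aimed at part of the gene, and the libraries labelled HKO held 55.7 ± 26.5 CPM (SD, n = 3) against 19.8 ± 5.92 CPM in their controls (n = 3).

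The axis genes spanned a wide range of levels. Per kilobase of exon, the control mice at 0 h held on average 505 CPM of *Igfbp4*, 308 CPM of *Igfbp1* and 303 CPM of *Igfbp2*. The receptor, the ligand and the acid-labile subunit followed, with 69.5 CPM per kilobase for *Ghr*, 67.5 for *Igf1* and 46.4 for *Igfals*. *Stat5b* stood at 14.4 CPM per kilobase, and the feedback genes were lowest, at 6.57 for *Cish*, 4.16 for *Bcl6* and 3.69 for *Socs2*. In the same mice, *Igfbp1* and *Igfbp2* did not differ beyond their spread, and neither did *Ghr* and *Igf1*. In GENCODE vM21 on GRCm38, *Ghr* lies on chromosome 15 (3317760 to 3583492, minus strand), *Igf1* on chromosome 10 (87858265 to 87937042, plus strand), *Socs2* on chromosome 10 (95385362 to 95417180, minus strand) and *Cish* on chromosome 9 (107296026 to 107302784, plus strand). Antisense or opposite-strand genes overlap *Igf1*, *Cish* and *Bcl6*, and since the counts disregard strand, their reads cannot be told apart.

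STAT5 binds the palindrome TTCNNNGAA, where N is any base, and the promoters of 9 of the 10 members (15 start sites in RefSeq, GRCm38.p6) were searched for it, *Socs2* not being in the table. The palindrome reads the same on both strands. It was found at 5 start sites, of *Cish*, *Igfals* and *Bcl6*, and 8.30% of 32851 mouse promoters of 300 bases hold at least 1 match. The windows of *Cish* and *Igfals*, genes that growth hormone induces, are shown 5′ to 3′ with the match in capitals. The *Cish* window (chr9:107296654-107296683, plus strand) lies in an annotated exon at the start site and holds 2 matches, as do 0.457% of promoters at 2 or more. The *Igfals* windows (chr17:24877598-24877627 and chr17:24878163-24878192, plus strand) begin their matches 236 and 58 bases before a start site.
Cish: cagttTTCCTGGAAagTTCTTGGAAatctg
Igfals, start site 1: gatctataatTTCTCAGAAaagaggctgag
Igfals, start site 2: ctgccaggtgTTCCTAGAAgaggccctggg

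*Bcl6*, which encodes a repressor that competes with STAT5 for its sites, held 3 matches within 250 bases before its second start site (chr16:23981284-23981533, minus strand), a stretch with no annotated exon. They begin 168, 122 and 88 bases before the start site, and 0.317% of promoters hold at least 2 matches in 250 bases upstream. *Igfbp1*, a fasting-responsive target of FOXO1, held 1 match to the FOXO-type motif AAAACAA, which begins 107 bases before its start site (chr11:7197537-7197781, plus strand, upstream of the first exon). Counting both strands, this motif occurs in 8.11% of promoters and once at the second start site of *Stat5b*. Neither E2F motif that was searched, TTTCCCGC or TTTGGCGC, matched at any of the 15 start sites on either strand. A match describes letters and is not evidence of binding.
Bcl6, start site 2: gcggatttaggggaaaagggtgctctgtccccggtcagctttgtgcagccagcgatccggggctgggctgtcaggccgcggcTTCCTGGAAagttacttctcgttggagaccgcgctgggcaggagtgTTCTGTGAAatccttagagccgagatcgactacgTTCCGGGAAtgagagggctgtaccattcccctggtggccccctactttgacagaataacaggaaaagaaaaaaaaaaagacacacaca
Igfbp1: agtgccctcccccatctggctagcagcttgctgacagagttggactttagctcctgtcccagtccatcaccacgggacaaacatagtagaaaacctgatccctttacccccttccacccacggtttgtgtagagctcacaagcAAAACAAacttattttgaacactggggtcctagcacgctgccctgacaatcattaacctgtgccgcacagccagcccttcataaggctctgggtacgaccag

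The receptor and its signal fell after APAP. In the 4 control mice at 0 h, *Ghr* stood at 674, 635, 652 and 557 CPM, and the control pools held 210, 166, 187, 297 and 644 CPM at 12, 24, 48, 72 and 96 h. The 4 LKO mice at 0 h stood at 546, 476, 687 and 597 CPM, followed by 169, 244, 450, 570 and 621 CPM in the pools. Both pools at 12, 24 and 48 h lay below all 8 mice at 0 h, and both pools at 96 h lay within their range. With edgeR's quasi-likelihood test over both genotypes, where a call needed both an adjusted p-value below 0.05 and a change of 1.5-fold or more, *Ghr* fell 3.09-fold at 12 h (log2 fold change −1.63 ± 0.30 SE, adjusted p = 0.000663). It fell 3.00-fold at 24 h (−1.59 ± 0.30, adjusted p = 0.00113) and 1.96-fold at 48 h (−0.97 ± 0.29, adjusted p = 0.0269). At 72 h the fitted change was −0.52 (adjusted p = 0.204), with the control pool below its 4 mice and the LKO pool within the range of its own. With control libraries alone, *Ghr* was called lower at 72 h (−1.06, adjusted p = 0.0316), and with LKO libraries alone its call at 48 h was lost (−0.35, adjusted p = 0.528).

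*Stat5b*, the main transducer of growth hormone in hepatocytes, was called lower from 12 to 72 h. It held 75.2 to 84.2 CPM in the control mice and 80.0 to 110 CPM in the LKO mice at 0 h. The control pools held 52.3, 31.4, 39.6, 41.8 and 50.6 CPM from 12 to 96 h, and the LKO pools 53.2, 43.0, 66.8, 63.4 and 88.9 CPM. All pools from 12 to 72 h lay below the 8 mice at 0 h. *Stat5b* fell 1.57-fold, 2.33-fold, 1.65-fold and 1.66-fold at the time points from 12 to 72 h (edgeR, adjusted p = 0.0107, 0.000312, 0.0121 and 0.0107). The call at 48 h was lost with library size alone, where the fold fell short (−0.54, adjusted p = 0.0424). Those at 12, 48 and 72 h were lost with LKO libraries alone (adjusted p = 0.100, 0.411 and 0.374), and that at 12 h with control libraries alone (0.0673). At 96 h its log2 fold change was −0.35 (adjusted p = 0.356).

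*Igf1* and *Igfals*, both targets of the receptor, parted. *Igf1* held 524 to 756 CPM in the 8 control and LKO mice, with a median of 648 CPM. The control pools held 666, 510, 495, 649 and 832 CPM at successive time points, and the LKO pools 498, 607, 796, 673 and 662 CPM. The pools thus fell on either side of the mice, and no time point gave a call (edgeR, log2 fold changes of −0.09, −0.19, 0.03, 0.05 and 0.22 from 12 to 96 h, adjusted p = 0.541 to 0.946). The 95% confidence intervals of these changes reached at most −0.64 and 0.65, so larger shared changes in *Igf1* lie outside them.

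*Igfals* in contrast was called at 12 and 24 h. Its level was 143, 194, 158 and 93.2 CPM in the control mice and 145, 116, 127 and 172 CPM in the LKO mice. In the pools it was 35.1, 50.9, 51.8, 72.4 and 174 CPM in controls and 30.8, 101, 123, 132 and 139 CPM in LKO. *Igfals* fell 4.24-fold at 12 h (−2.09 ± 0.36, edgeR adjusted p = 0.000377), with both pools at less than the lowest mouse, and 1.96-fold at 24 h (−0.97 ± 0.33, adjusted p = 0.0350). With LKO libraries alone the call at 24 h was lost (−0.48, adjusted p = 0.291), and with control libraries alone a call was gained at 48 h (−1.51, adjusted p = 0.0432). At 48 and 72 h its fitted changes were −0.78 and −0.53 (adjusted p = 0.105 and 0.261). From 24 to 72 h the control pools stayed below their 4 mice, whereas the LKO pools from 48 h on were within the range of theirs.

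**Figure D1:**
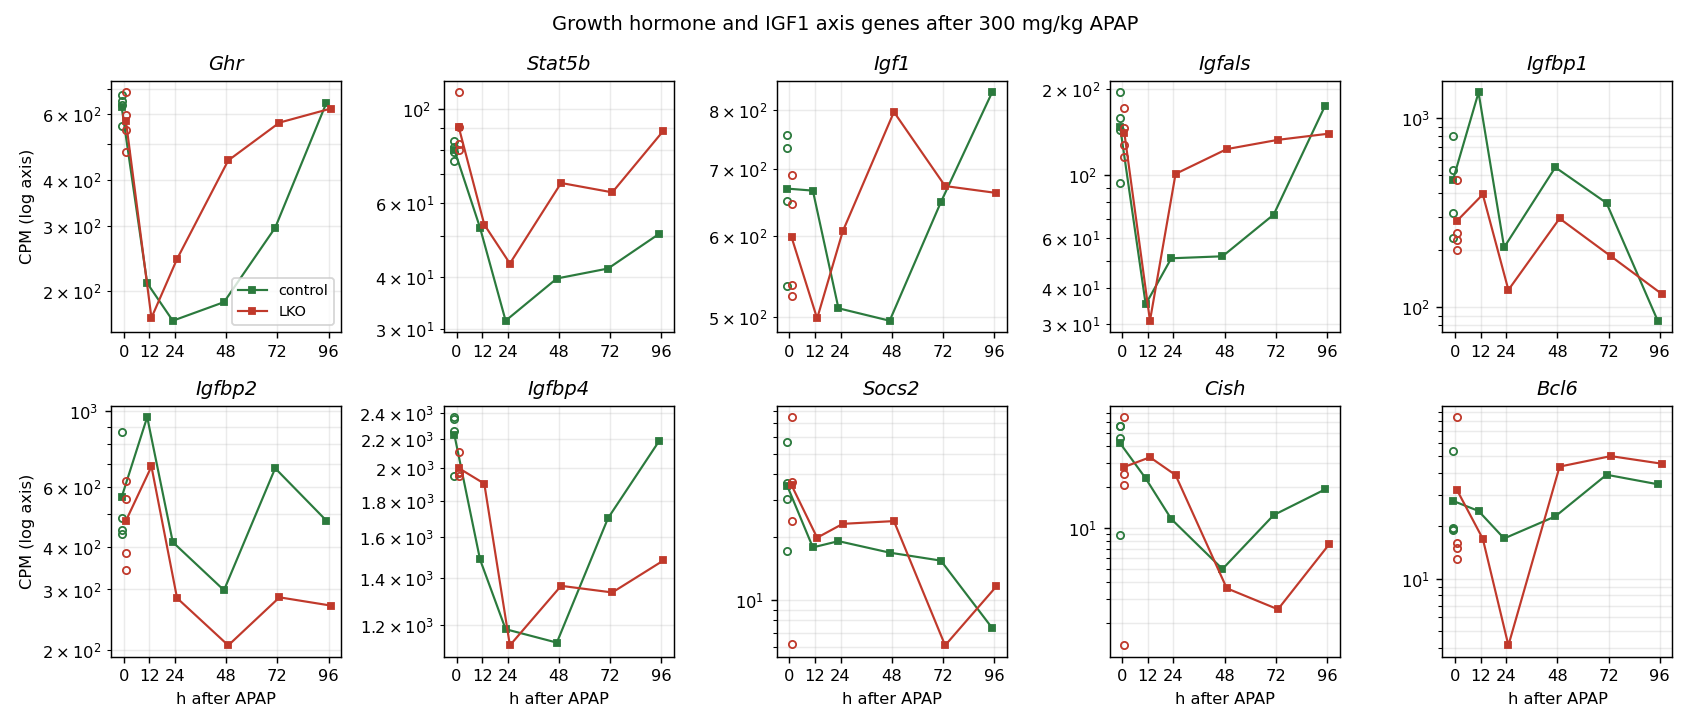
Level of each axis gene in CPM (log axis) against hours after APAP, for control (green) and LKO (red). Open circles are the 4 single mice per genotype at 0 h, and lines join the 0 h mean to 1 pool of 3 mice per time point. *Ghr* and *Igfals* dip at 12 h in both genotypes (to 210 and 169 CPM for *Ghr*), and *Igf1* stays between 495 and 832 CPM.

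The binding proteins did not share a course. *Igfbp4*, the most abundant, held 1948 to 2365 CPM in the 8 mice, and its pools held 1486, 1183, 1132, 1700 and 2188 CPM in controls and 1903, 1122, 1363, 1334 and 1481 CPM in LKO. *Igfbp4* fell 1.84-fold at 24 h (edgeR, adjusted p = 0.00296) and 1.69-fold at 48 h (adjusted p = 0.0116), with both pools below all 8 mice from 12 to 72 h. The call at 24 h was lost with control or LKO libraries alone (adjusted p = 0.0539 and 0.0733), and that at 48 h with LKO libraries alone (−0.55, adjusted p = 0.284) and with library size alone, where the fold fell short (−0.57). *Igfbp4* binds IGF1 and IGF2 and limits their access to the receptor. *Igfbp2* ranged from 343 to 866 CPM at 0 h, with a median of 466 CPM. Its control pools held 960, 413, 298, 680 and 477 CPM, and its LKO pools 688, 283, 206, 285 and 269 CPM. *Igfbp2* fell 2.09-fold at 48 h (−1.07 ± 0.30, edgeR adjusted p = 0.0223), a call lost with control or LKO libraries alone (−0.90 and −1.21, adjusted p = 0.194 and 0.155). At 12 h, where both pools lay above their own 4 mice, the change missed the threshold (0.68, adjusted p = 0.0563). It passed without control mouse 4, LKO mouse 2 or LKO mouse 4 (adjusted p = 0.0298, 0.0464 and 0.0275), with DESeq2 (0.0437) and with at least 10 counts in every library (0.0498).

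*Igfbp1*, which sequesters IGF1 when nutrients are scarce, varied most among the binding proteins. The control mice held 232, 533, 800 and 313 CPM and the LKO mice 470, 247, 201 and 228 CPM. The pools held 1364, 207, 548, 355 and 84.7 CPM in controls and 394, 123, 294, 186 and 117 CPM in LKO. *Igfbp1* rose 2.17-fold at 12 h (1.12 ± 0.39, edgeR adjusted p = 0.0352), with the control pool above its 4 mice and the LKO pool within the range of its own. The call was lost without control mouse 1 or 4 or LKO mouse 3 or 4 (adjusted p = 0.0510 to 0.0559), and with control or LKO libraries alone (1.57 and 0.48, adjusted p = 0.0713 and 0.473). At 24 h the pools were below their own mice without a call (−1.21, adjusted p = 0.0561, and a call at 0.0329 and 0.0466 without control mouse 1 or 4 and at 0.0125 with DESeq2), and at 96 h both were below all 8 mice (−1.78, adjusted p = 0.0999).

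*Socs2* and *Cish*, direct targets of STAT5 that dampen receptor signalling, gave 1 call between them after APAP. *Socs2* stood at 36.2, 30.3, 56.9 and 17.2 CPM in the control mice and at 6.20, 75.0, 36.7 and 23.9 CPM in the LKO mice. The control pools held 17.9, 19.1, 16.9, 15.4 and 7.37 CPM and the LKO pools 19.9, 23.2, 23.9, 6.08 and 11.6 CPM. *Socs2* was not called at any time point, with fitted changes of −1.72 at 72 h and −1.92 at 96 h (edgeR, adjusted p = 0.0758 and 0.185). *Cish* stood at 56.7, 46.2, 56.8 and 8.92 CPM in the control mice and at 1.38, 65.6, 25.1 and 20.8 CPM in the LKO mice. Its control pools held 23.3, 11.7, 5.01, 12.5 and 19.3 CPM, and its LKO pools 33.2, 24.6, 3.62, 2.54 and 7.62 CPM. *Cish* fell 8.16-fold at 48 h (−3.03 ± 1.01, edgeR adjusted p = 0.0476), although 1 LKO mouse at 0 h lay below both pools. That call was lost when any of control mice 1, 2 and 3 or LKO mice 2, 3 and 4 was left out (adjusted p = 0.0533 to 0.0675), with control or LKO libraries alone (0.0788 and 0.351), with library size alone (0.0529) and with at least 10 counts in every library (0.0535). Without LKO mouse 1, *Socs2* and *Cish* were called lower at 72 h (−1.84 and −2.48, edgeR adjusted p = 0.0178 and 0.0272).

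*Bcl6* showed no call after APAP. It held 19.0, 53.9, 19.1 and 19.4 CPM in the control mice and 84.0, 13.0, 15.9 and 15.0 CPM in the LKO mice. The pools held 24.4, 17.0, 22.7, 39.3 and 34.6 CPM in controls and 16.9, 4.14, 43.7, 50.2 and 45.4 CPM in LKO. The LKO pool at 24 h was the lowest library for *Bcl6* of all 24 (fitted change over both genotypes −1.51, edgeR adjusted p = 0.126).

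Counted together, 4 members were called at 12 h (3 lower, 1 higher), followed by 4, 5, 1 and 0 at the later time points, all of them lower. At 96 h, 2 members had an unadjusted p under 0.05 with edgeR, as had 15.4% of genes, and DESeq2 called *Igfbp1* lower (adjusted p = 0.00245). The background was high at first, since 31.0%, 25.6%, 16.4%, 16.8% and 0.462% of the 13855 genes tested were called from 12 to 96 h. In the lower direction alone the background was 14.3%, 11.7%, 6.52%, 5.77% and 0.130% of genes, and in the higher direction at 12 h 16.7%. Both pools lay below all 8 mice for 4, 3, 4, 2 and 1 of the members from 12 to 96 h, as for 17.1%, 17.6%, 11.4%, 12.5% and 7.43% of genes, and above them for none. The median log2 fold change of the 10 members was −0.39, −0.93, −0.77, −0.52 and −0.29 at the 5 time points, beside medians over all genes tested that lay between −0.03 and 0 on the same scale. The 5 comparisons share the same 8 mice at 0 h and are not independent, and single mice are compared with pools.

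**Figure D2:**
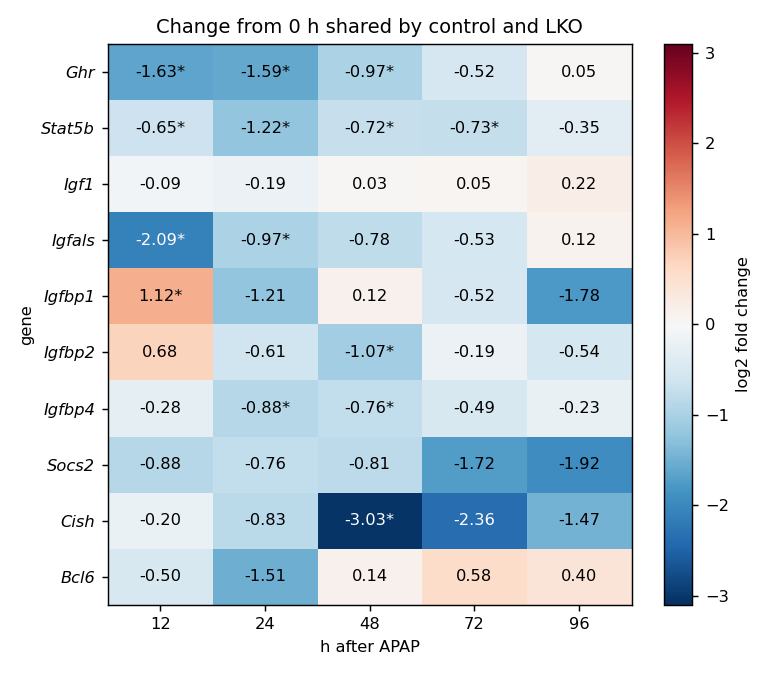
Fitted log2 fold change from 0 h (colour and number) of each gene at each time point after APAP, over control and LKO together (2 pools against 8 mice). Asterisks mark calls (edgeR adjusted p below 0.05 with a 1.5-fold change or more), which are 3 of 5 for *Ghr*, 4 of 5 for *Stat5b* and 0 of 5 for *Igf1*.

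Before APAP, the feedback genes and *Bcl6* differed far more between mice of 1 group than most genes do. The within-group SD of *Cish* over the 14 mice was 1.60 on the log2 scale, larger than that of 99.8% of 14501 genes. It was 1.13 for *Socs2* and 0.97 for *Bcl6* (larger than 98.9% and 97.7% of genes), beside a median of 0.29 over all genes. Among genes of a like level these 3 exceeded 99.9%, 99.7% and 99.4%. *Cish* spanned 65.4-fold over the 14 mice, from 1.38 to 90.1 CPM, and *Socs2* spanned 30.9-fold. LKO mouse 1 was the lowest in both, and without it *Cish* spanned 14.9-fold and *Socs2* 11.1-fold, and the SD of *Cish*, *Socs2* and *Bcl6* was 1.10, 0.91 and 0.73 (larger than 99.0%, 96.9% and 90.8% of genes). Growth hormone secretion is pulsatile in male mice, and the plasma hormone was not measured here. By contrast *Igfbp4*, *Stat5b* and *Igf1* were steady, with an SD of 0.09, 0.14 and 0.17, larger than that of 1.47%, 9.70% and 17.5% of genes.

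*Cish* and *Socs2* varied together across these mice. As deviations of log2 CPM from the group mean, their Pearson r was 0.84 and Spearman's rho 0.77 (n = 14, exact 2-sided permutation within groups, p = 0.00256 and 0.00834). Adjusted over the 6 pairs compared, these became 0.0153 and 0.0501. Within the LKO cohort r was 0.96 and rho 0.98 (n = 8, exact adjusted p = 0.0104 for both) and within the HKO cohort they were 0.55 and 0.26 (n = 6, exact adjusted p = 0.556 and 0.917), where 0.0278 is the smallest unadjusted p that the arrangements allow. Without the 2 mice farthest from the median of *Cish*, control mouse 4 and LKO mouse 1, r was 0.65 and rho 0.60 (n = 12, exact adjusted p = 0.238 and 0.294), no longer past the threshold.

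*Ghr* and *Igf1* also varied together, with an r of 0.67 and a rho of 0.74 (n = 14, exact permutation, adjusted p = 0.0163 and 0.0506). Within the LKO cohort r was 0.82 and rho 0.76 (n = 8, exact adjusted p = 0.0469 and 0.0990), and within the HKO cohort 0.81 and 0.77 (n = 6, exact adjusted p = 0.556 and 0.917). Without the 2 mice farthest on *Ghr* (HKO mice 1 and 3) r was 0.79 and rho 0.64 (exact adjusted p = 0.111 and 0.294), no longer past the threshold. The other 4 pairs did not pass. *Cish* and *Bcl6* had an r of −0.55 (exact permutation, adjusted p = 0.254), and the LKO mouse with the lowest *Cish*, 1.38 CPM, had the highest *Bcl6*, 84.0 CPM. The remaining pairs had an r of 0.41 for *Cish* and *Igf1*, −0.26 for *Socs2* and *Bcl6* and 0.27 for *Socs2* and *Igf1*. Without the 2 mice farthest on the first gene of each pair, r was −0.38, 0.45 and 0.42 in turn. For *Socs2* and *Bcl6* the sign differed between the LKO and HKO cohorts (r = −0.74 and 0.69).

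**Figure D3:**
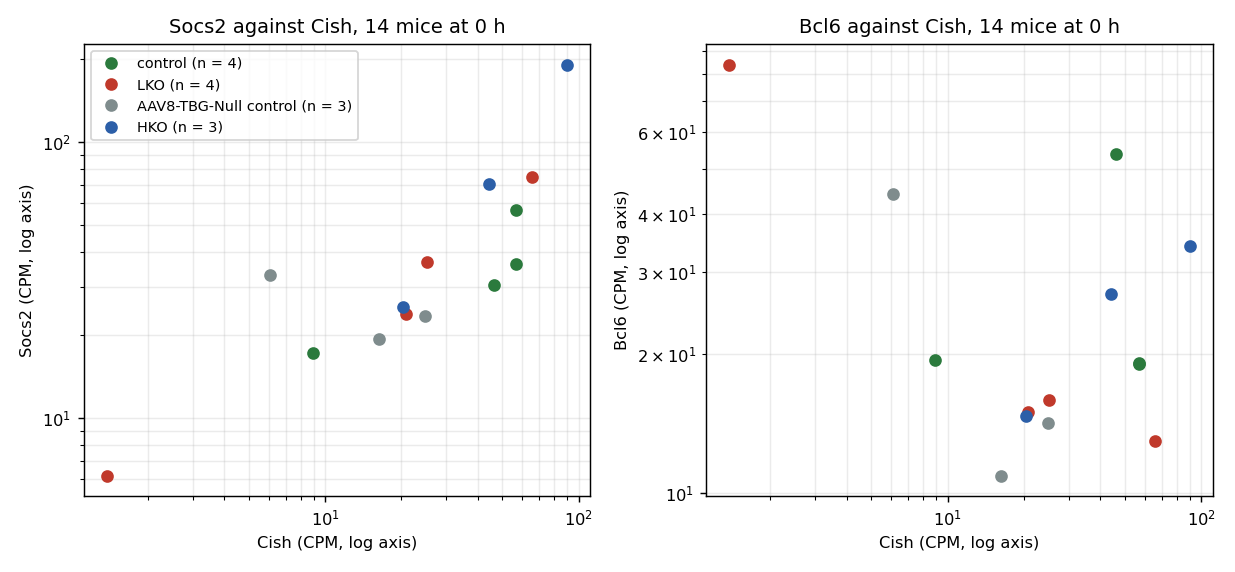
*Socs2* (left) and *Bcl6* (right) against *Cish*, in CPM on log axes, for the 14 single mice at 0 h coloured by group. *Socs2* and *Cish* rise together from the LKO mouse at 6.20 and 1.38 CPM to the HKO mouse at 191 and 90.1 CPM, and *Bcl6* is highest in the mouse with the lowest *Cish*.

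In HKO livers, *Socs2* and *Cish* lay higher and the IGF complex lower than in AAV8-TBG-Null livers, without reaching a call. *Socs2* stood at 25.2, 191 and 70.5 CPM in HKO mice and at 19.3, 23.4 and 33.0 CPM in controls (log2 fold change 1.93 ± 0.58, edgeR adjusted p = 0.186). *Cish* stood at 20.3, 90.1 and 44.1 CPM and at 16.3, 24.8 and 6.06 CPM in turn (1.72 ± 0.56, adjusted p = 0.225). The groups overlapped for both. *Igf1* was 656, 658 and 721 CPM in HKO and 900, 867 and 869 CPM in controls, without overlap (−0.37 ± 0.10, edgeR adjusted p = 0.122). *Stat5b* was 77.2, 92.7 and 85.8 CPM in HKO and 56.4, 59.9 and 66.0 CPM in controls, also without overlap (0.49 ± 0.11, adjusted p = 0.0762). Over the alternatives (edgeR or DESeq2) the adjusted p went down to 0.00923 for *Igf1* and 0.0100 for *Stat5b*. Their changes went no further than −0.42 and 0.56, short of the 1.5-fold that a call needs.

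None of the 10 members was called in HKO by edgeR or by DESeq2, where edgeR called 0.960% of the 12397 genes tested, and 7 members had an unadjusted p under 0.05, as had 12.9% of genes. *Stat5b* and *Igfbp1* were higher in each HKO mouse than in any control and *Igf1*, *Igfals* and *Igfbp4* lower, 5 of 10 members, and 18.0% of genes had groups that did not overlap (8.83% higher and 9.15% lower in HKO). *Igfbp1* was 390 to 464 CPM in HKO and 256 to 366 CPM in controls (0.40, edgeR adjusted p = 0.274), *Igfals* 64.9 to 92.8 and 94.5 to 121 CPM (−0.39, adjusted p = 0.304) and *Igfbp4* 1995 to 2230 and 2495 to 2684 CPM (−0.30, adjusted p = 0.256). *Ghr*, *Igfbp2* and *Bcl6* had fitted changes of −0.20, −0.01 and 0.13. Without HKO mouse 1, *Socs2* and *Cish* were called higher (2.38 and 2.10, edgeR adjusted p = 0.00991 and 0.0404). Without HKO mouse 2, the highest in both, they were 0.92 and 1.04 (adjusted p = 0.478 and 0.537), and without AAV8-TBG-Null control mouse 3 *Cish* was 1.33 and *Bcl6* 1.01 (adjusted p = 0.390 and 0.280). The fasting-responsive genes *Pck1*, *G6pc* and *Pdk4* had fitted log2 fold changes of −0.54, −0.14 and 1.23 in HKO (edgeR, adjusted p = 0.0876, 0.815 and 0.123), and the part of nutritional state in these values was not tested.

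In LKO livers before APAP, no member was called different from control by edgeR or DESeq2. The groups overlapped for all 10, as for all but 1.85% of genes. No gene of the 12426 tested was called by edgeR (0.00%) and 3 were by DESeq2, and 352 genes (2.83%) but no member had an unadjusted p under 0.05 with edgeR. The fitted change was −0.71 for *Igfbp1* (95% interval −1.57 to 0.14) and −0.57 for *Cish* (−2.32 to 1.19), and *Igf1* had −0.16 (−0.50 to 0.19). The order of the members depended on single mice, since *Igfbp1* was −0.31 without control mouse 3, *Cish* was −1.42 without LKO mouse 2 and −0.18 without LKO mouse 1, and *Bcl6* went from 0.20 to −0.93 without LKO mouse 1. The LKO effect minus the HKO effect was −1.91 for *Socs2*, −2.29 for *Cish* and −1.11 for *Igfbp1*, with an adjusted p of 1.00 for each member. Over the alternatives it ran from −2.58 to −0.91 for *Socs2*, from −3.13 to −1.61 for *Cish* and from −1.62 to −0.71 for *Igfbp1*. No gene was called for this difference by edgeR (0.00% of 12945) and 21 were by DESeq2, none of them a member. With edgeR, 579 genes (4.47%) had an unadjusted p under 0.05, *Igfbp1* among them, and the virus and the age at deletion also differ between the cohorts.

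After APAP, LKO pools had more *Stat5b* and less *Igfbp2* than control pools at each of the 5 time points. That is 1 of 10 members in each direction, near the 7.98% of genes higher and 9.12% lower in LKO throughout (17.1% in either direction). For *Stat5b* the difference at 12 h was 0.02 on the log2 scale. *Igfbp2* was 1.68-fold lower over 12 to 96 h (−0.75 ± 0.17, edgeR adjusted p = 0.0803), *Igfbp1* 1.75-fold lower (−0.81 ± 0.27, adjusted p = 0.172) and *Stat5b* 1.42-fold higher (0.51 ± 0.15, adjusted p = 0.144). None was called, and 0.512% of the 13659 genes tested were. DESeq2 called *Igfbp2* and *Igfbp1* lower (adjusted p = 0.00180 and 0.0283), edgeR called *Igfbp1* without the 96 h pools (−1.12, adjusted p = 0.0339), and 3 members had an unadjusted p under 0.05 in the full comparison, as had 17.4% of genes. *Ghr* and *Igfals* were higher in LKO at 24, 48 and 72 h and lower at 12 and 96 h. For *Ghr* the LKO pool minus the control pool was −0.31, 0.55, 1.27, 0.94 and −0.05 on the log2 scale from 12 to 96 h, and for *Igfals* −0.19, 0.98, 1.24, 0.87 and −0.32, each from 1 pool a genotype and so with no test at a single time point.

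Averaged over time, *Ghr* and *Igfals* had changes of 0.46 and 0.50 (edgeR, adjusted p = 0.340 and 0.318), and *Igf1*, *Igfbp4*, *Socs2*, *Cish* and *Bcl6* of 0.03, −0.09, 0.05, −0.47 and −0.13. Over the alternatives *Cish* ran from −0.88 to −0.01 and *Bcl6* from −0.40 to 0.29, and *Igf1*, *Igfbp4* and *Socs2* also took either sign. The genotype difference after APAP minus that at 0 h was 0.60 for *Ghr* (adjusted p = 0.543) and 0.58 for *Igfals* (adjusted p = 0.606). No member was called for it by edgeR or DESeq2, and of 13855 genes edgeR called 0.00% and DESeq2 39 genes. With edgeR, 1307 genes (9.43%) had an unadjusted p under 0.05 and no member had.

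**Figure D4:**
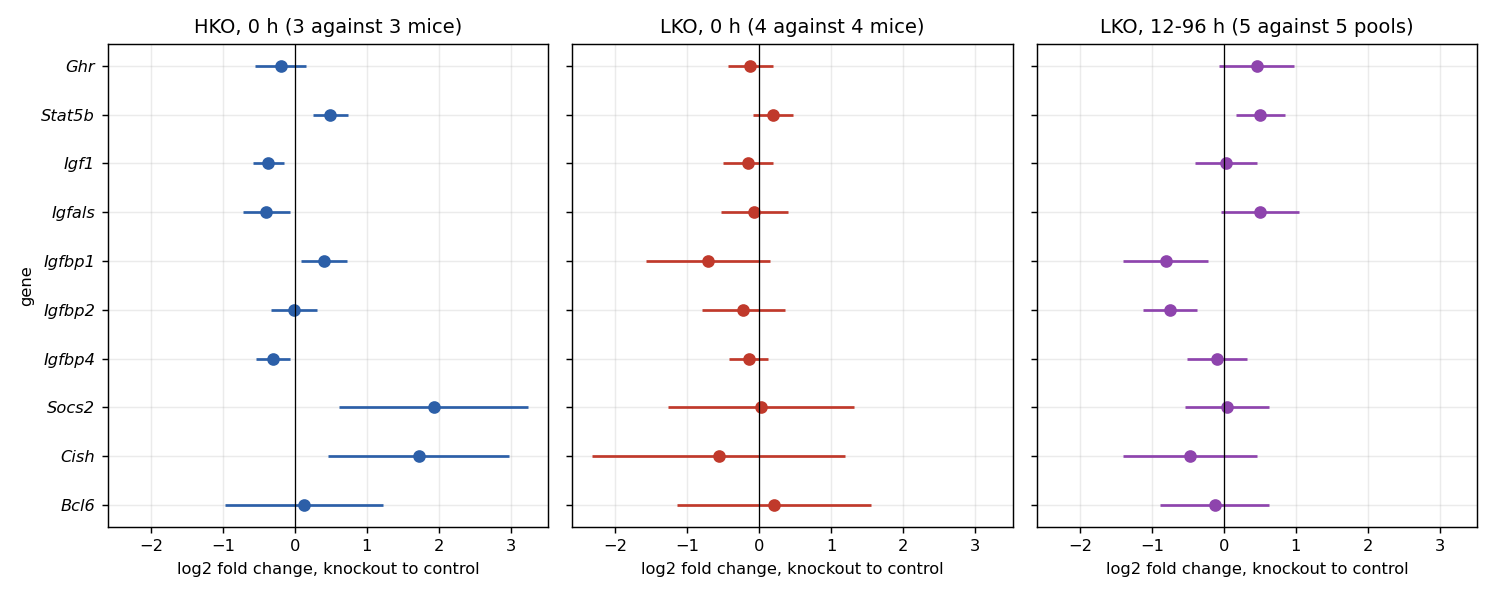
Fitted log2 fold change of knockout to control (points) with its 95% confidence interval (bars) for each gene, in HKO at 0 h, LKO at 0 h and LKO over 12 to 96 h after APAP. edgeR called no member in any of the 3 comparisons, DESeq2 called *Igfbp1* and *Igfbp2* lower in LKO over 12 to 96 h, and intervals are wide for *Socs2*, *Cish* and *Bcl6* at 0 h (for *Cish* in LKO from −2.32 to 1.19).

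**Figure D5:**
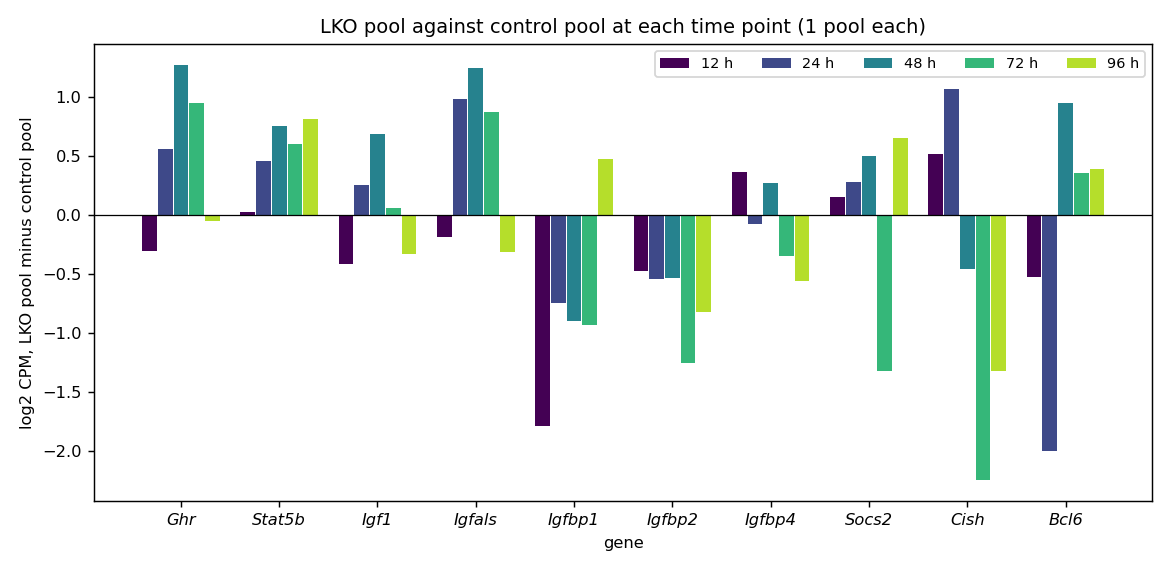
Log2 CPM of the LKO pool minus the control pool for each gene at 12 to 96 h after APAP (bars from 0, 1 pool per genotype and time point, no error bars). *Stat5b* is above 0 (by 0.02 at 12 h) and *Igfbp2* below 0 at all 5 time points. These are 1 of 10 genes in each direction, near the 7.98% of all genes above and 9.12% below 0 throughout. *Ghr* peaks at 1.27 at 48 h.

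Other genes of the pathway were called from 12 to 72 h. Of 10 further growth hormone signalling genes, 5 rose at 12 h, among them *Fgf21* (log2 fold change 2.96, edgeR adjusted p = 0.00147), a fasting hormone, and the inhibitors *Socs1* (1.83, adjusted p = 0.0326) and *Socs3* (1.71, adjusted p = 0.00804), which cytokines also induce. Over all genes, 16.7% rose at that time. The median of the list at 12 h was 0.77, beside −0.01 over all genes. *Ptpn2*, a phosphatase of JAK kinases, was the 1 of 10 that rose at 24 h, as 13.9% of all genes did, and the adaptor *Sh2b1* the 1 that fell at 72 h, as 5.77% did. Of 7 further IGF ligand, receptor and adaptor genes, *Igf1r* alone rose at 12 h (1.15, adjusted p = 0.00577), a share near the 16.7% of all genes. *Irs2*, *Insr* and *Irs1*, which carry the insulin and IGF signal, fell at 24 h, where 11.7% of all genes did, *Irs2* by 2.45 (edgeR adjusted p = 0.00270). *Irs2* also fell at 48 h (1 of 7, beside 6.52% of genes) and *Grb10* rose at 72 h (1 of 7, beside 11.0%). Of 8 further IGF binding proteins and proteases, 4 could be tested. *Igfbp3*, which carries most circulating IGF1 and is made in the liver by non-parenchymal cells, rose at 48 and 72 h (1.40 and 1.39, edgeR adjusted p = 0.00297 and 0.00222). *Igfbp7* rose at 72 h, and *Igfbp6* fell at 12 and 48 h. Over all genes, 9.89% and 11.0% rose at 48 and 72 h, and 14.3% and 6.52% fell at 12 and 48 h. None of these other genes of the pathway was called at 96 h or between genotypes.

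Genes whose sex pattern depends on the rhythm of growth hormone were called in both sex lists. Of 10 genes higher in male liver, 3, 6, 6, 4 and 0 fell at 12, 24, 48, 72 and 96 h and none rose, beside 14.3%, 11.7%, 6.52%, 5.77% and 0.130% of all genes, with list medians of −1.65, −2.23, −1.73, −1.69 and −0.81. Their summed level already ranged from 4139 to 31016 CPM among the 8 mice of the LKO cohort at 0 h, and was 2912 to 6977 CPM in the pools. *Hsd3b5*, a male-specific steroid dehydrogenase, fell by 5.87 on the log2 scale at 12 h (edgeR, adjusted p = 0.000105), and *Selenbp2* by 6.00 (adjusted p = 0.0141). Of the 10 genes higher in female liver, 8 could be tested after APAP, and 2, 0, 2, 2 and 1 rose from 12 to 96 h and none fell, *Cux2* and *Cyp17a1* at 12 h and *A1bg* and *Cyp3a44* at 48 and 72 h. Over all genes, 16.7%, 13.9%, 9.89%, 11.0% and 0.332% rose, so that the 2 of 8 at 12 h were near the background. In the control pools the female list summed to 10.5 to 41.7 CPM, within the 9.38 to 130 CPM of the 4 control mice at 0 h. In the LKO pools it summed to 37.4 to 257 CPM, beside 20.9 to 182 CPM in the 4 LKO mice. In HKO at 0 h, *Cux2* of the female list and *Mup20* of the male list fell by 4.11 and 1.33 on the log2 scale, and the male-list gene *Elovl3* rose by 1.09 (edgeR, adjusted p = 0.00260, 0.00927 and 0.0238), where 0.540% of genes fell and 0.419% rose. In LKO pools over 12 to 96 h, *Mup20* was lower than in control pools (−1.13, adjusted p = 0.0410), as were 0.286% of genes. In the same comparison 4 genes of the female list were higher, by 2.75 to 3.98 on the log2 scale, *Cyp3a44*, *A1bg* and *Cyp2a4* among them, where 0.227% of genes were called higher. Their list median was 2.49, beside −0.02 over all genes tested. It was 0.65 in LKO at 0 h over 5 genes tested, and the genotype difference after APAP minus that at 0 h gave no call among the 8 genes. The *Cyp* genes among them belong to families with near-identical copies, so that their counts are uncertain, and at 0 h the summed list already ranged from 9.38 to 182 CPM among the mice of the LKO cohort.

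Among genes that respond to fasting and FOXO1, *Pck1* and *G6pc*, enzymes of gluconeogenesis, fell from 12 to 72 h, whereas *Pdk4* rose at 12, 24 and 48 h. Over all genes, 14.3%, 11.7%, 6.52% and 5.77% fell from 12 to 72 h, and 16.7%, 13.9% and 9.89% rose from 12 to 48 h. *Pck1*, *G6pc* and *Pdk4* come from a list of 8, and the calls of its other genes are not given. *G6pc* was higher in LKO than in control pools over 12 to 96 h (1.32, edgeR adjusted p = 0.0454), where 0.227% of genes were called higher. Markers of other cell types moved with time too. Neutrophil markers (6 genes) summed to 2.59 to 12.3 CPM at 0 h and to 9.04 to 33.1 CPM from 12 to 72 h. Macrophage and Kupffer cell markers (8 genes) summed to 150 to 375 CPM at 0 h. They were at 134 to 158 CPM at 12 h, 145 to 168 CPM at 24 h and 733 to 841 CPM at 72 h. Stellate cell and fibroblast markers (8 genes) went from 143 to 261 CPM at 0 h to 831 to 1128 CPM at 72 h. Of these 8 stellate cell and fibroblast genes, 3 fell at 12 h and 3 fell and 1 rose at 24 h (list medians −0.36 and −0.44), and 4 and 7 rose at 48 and 72 h (0.88 and 1.59). Over all genes, 14.3% and 11.7% fell at 12 and 24 h, and 13.9%, 9.89% and 11.0% rose at 24, 48 and 72 h. The 4 proliferation genes went from at most 9.07 CPM at 0 h to 162 to 171 CPM at 72 h. Sinusoidal endothelial markers (6 genes) summed to 213 to 282 CPM at 0 h and to 166 to 306 CPM in the pools, and cholangiocyte markers (5 genes) to 37.8 to 75.2 and to 21.8 to 216 CPM. Hepatocyte markers summed to 60994 to 131706 CPM at 0 h and to 75369 to 156558 CPM in the pools. Within that list of 8, 3 genes fell and 1 rose at 12 h (*Ttr* by −0.98, *Serpina1c* by −0.89 and *Fgb* by 1.14 on the log2 scale), beside 14.3% and 16.7% of all genes. At 24 h 2 of the 8 rose (*Fgb* and *Apoa1*) and 1 fell, beside 13.9% and 11.7% of all genes, so that the 1 of 8 was near the background. At 48 and 72 h 1 fell and none rose, where 6.52% and 5.77% of all genes fell. The gene that fell at these 3 times was *Hnf4a*, a regulator of hepatocyte identity (−0.67, −0.88 and −0.83). The part of cell makeup and feeding in the changes of the members was not tested, and fewer cells of a type and less RNA per cell cannot be told apart in whole liver.

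Over the 24 libraries, the genes whose log2 CPM followed *Ghr* most closely among 14500 were *Hibadh* (Pearson r = 0.97), *Cyp2j5* (0.96) and *Ugt2a3* (0.96). For *Igf1* they were *F9* (0.84), *Bnip3l* (0.83) and *Sepp1* (0.82). For *Socs2* they were *Foxa1* (0.79), *Gm10785* (0.78, with a median of 0.460 CPM) and *Cish* (0.75), and for *Igfbp1* they were *Pxk* (0.88), *Aak1* (0.83) and *Nup98* (0.83). These values describe libraries that share time points, genotypes and mice of 1 cohort, and no test was made of them.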

How the data were processed

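The authors extracted RNA from frozen liver with TRIzol, trimmed the reads and aligned them with STAR to mm10. The gene counts that STAR gave were deposited without normalization. The unstranded column of these deposited counts was used. Its 4 entries that name no gene, 18.7% to 39.9% of reads per library, were left out. Uniquely mapped reads alone are counted. Counts were scaled by TMM and tested with edgeR 4.0.16 (filterByExpr, quasi-likelihood F-test, 2-sided) in R 4.3.3, with Benjamini-Hochberg adjustment over all genes of a comparison. A call needed both an adjusted p-value below 0.05 and a change of 1.5-fold or more. Log2 CPM used a prior count of 2. DESeq2 1.42.0, other scalings, filters, columns and left-out libraries were alternatives.

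Change after APAP was fitted over the 18 libraries of the LKO cohort with genotype and time point as terms. LKO was compared with control over 12 to 96 h in a fit blocked by time point. Pools spread less than single mice, so the pooled spread estimate is approximate, and p-values over pools measure the spread between time points. Relations across mice used all 20736 arrangements within groups. All 10 members were named in each comparison, of the 3 lists of other axis genes at most 4 called genes per comparison, and of other lists at most 3. *Igf1r* at 12 h, and *Pck1*, *G6pc* and *Pdk4* in HKO, fall outside this rule and were chosen after their values were seen. Members, lists and motifs were chosen with earlier results of these data or the sequences known. The edgeR test was run on simulated counts that gave mice and pools the same spread, which does not test how unequal spread between them affects it. The spread at 0 h without LKO mouse 1 was added after seeing the data. Coordinates are from GENCODE vM21 (GRCm38) and promoters from RefSeq. 1 gene of the fasting list, and the sums that hold it, are not reported here.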

Additional observations from a re-analysis of the deposited data

Results flagged for a closer look

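*Igfbp2* in control mouse 4 at 0 h was 866 CPM, whereas the next control mouse had 485 CPM, a gap larger than expected within a group of 4. *Bcl6* stood apart in the same way in control mouse 2, at 53.9 CPM against 19.4 CPM in the next mouse, and in LKO mouse 1, at 84.0 CPM against 15.9 CPM. Of the 20 groups of 4 mice examined, 3 gave such a value, where chance gives about 5%.

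At 48 h after APAP, *Igf1* lay 0.42 above the mean of the 4 LKO mice at 0 h on the log2 scale in the LKO pool, above each of them. In the control pool its change was −0.42, below each of the 4 control mice. The difference between the genotypes was not tested, since each is 1 pool. All 10 members were scanned at the 5 time points for pools on opposite sides of their mice, and this was the only case. How many of all genes do so was not counted. With scaling by library size alone, the control pool's change was −0.09.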

How the results depend on the processing

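Of 180 recomputed counts of members called, 166 were within 1.5 times the reported count, and of 1800 recomputed member changes 1748 stayed on their side of the threshold, 29 lost a call, 23 gained one and no call reversed. The 1748 include 81 whose sign differed while called in neither fit. Without each mouse or time point in turn, members called were 0 to 2 in HKO (2 without HKO mouse 1), 0 to 1 in LKO over 12 to 96 h and 1 to 3 at 72 h after APAP (3 without LKO mouse 1). In LKO over 12 to 96 h, DESeq2 called 2 members and no filter on low counts 1, and at 96 h after APAP DESeq2 called 1. With control libraries alone, 2 members were called at 12 h and 2 at 72 h. With LKO libraries alone, 2, 2, 0 and 0 were called at 12, 24, 48 and 72 h, where the lone pool is assumed to vary like the mice. Scaling by library size alone left 2 members called at 48 h (*Ghr* and *Igfbp2*). Without control mouse 4 and LKO mouse 1 together, chosen after seeing the data, 3 were called at 72 h. The cause of these shifts was not tested. Of the 2 relations past the threshold, *Cish* with *Socs2* had an r of 0.55 in the HKO cohort and 0.65 without the 2 farthest mice, and *Ghr* with *Igf1* had 0.81 and 0.79.

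Library size alone moved the median of all genes by 0.13 on the log2 scale in LKO at 0 h and by 0.14, 0.20 and 0.11 at 24, 48 and 72 h. It turned the calls at these times from 1928 higher and 1621 lower to 2509 and 1116, from 1370 and 904 to 2201 and 496, and from 1527 and 800 to 1738 and 415. In HKO it turned 52 and 67 into 76 and 58, and in LKO over 12 to 96 h 31 and 39 into 32 and 13. Counts of all genes called moved too. HKO had 119 with edgeR, 331 with DESeq2, 255 without a filter, 31 with all 14 mice in the fit and 54 to 297 without single mice. LKO over 12 to 96 h had 70, and 608 with DESeq2, 337 without a filter, 45 with library size alone, 34 with at least 10 counts in every library, 0 without the time block and 8 to 172 without single time points. At 96 h after APAP 64 genes became 338 with DESeq2, 41 with library size alone, 28 with a stranded column, 30 without the 2 mice, 10 with either genotype alone and 18 to 83 without single mice. With LKO libraries alone, 1414, 1062, 280 and 375 genes were called from 12 to 72 h, and at 24 h 1748 with control libraries alone. At least 10 counts in every library left 1519 at 72 h. For LKO minus HKO, no filter gave 2 genes, the left-out mice 0 to 3 and the 2 mice together 7, where edgeR called 0.

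With the replicate number as a block, members called stayed at 0 in HKO, in LKO at 0 h and for their difference, and genes called in HKO went from 119 to 264. The numbers did not pair the mice, since same-numbered mice had deviations that correlated at −0.38, −0.19, 0.10 and 0.22 in the LKO cohort and at 0.20, −0.03 and 0.10 in the HKO cohort. Depth limits *Cish* and *Bcl6* most, with as few as 20 and 80 reads in a library.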
